A study of Homo sapiens with 18 samples.

Results

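The mitotic kinases described here are 10 genes, PLK1, PLK4, AURKA, AURKB, BUB1, BUB1B, TTK, NEK2, CDK1 and PBK, out of 20045 genes with a symbol on the array. They were chosen by gene symbol, with earlier results of these data known. Every probe that the platform annotation assigns to one of them was taken, which gave 13 probes. AURKA, NEK2 and CDK1 have 2 probes each, and the brighter one stands for the gene. All 13 probes were detected on all 18 arrays, so 10 of 10 members passed the filter on dim probes. HEK293 is a line derived from human embryonic kidney, and its total RNA was read on Illumina bead arrays. Per the labels, siRNA silenced the p65 of the cells themselves in all samples, and a lentivirus supplied an HA-tagged p65 that the siRNA does not reach. The supplied p65 was either S547A, in which a serine is replaced by alanine, or wild type (wt). S547A cells given etoposide for 4 h, S547A cells given it for 8 h, untreated S547A cells and the same 3 conditions of wt cells make 6 groups of 3 arrays. The whole experiment was done 3 times, per the series text. How much etoposide was given, and whether each line is a clone or a pool, are not given in the sources used here, and no cells without silenced p65 are among the arrays.

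Mitotic kinases drive cells from G2 into and through division. CDK1 with cyclin B starts mitosis, polo-like kinase 1 and Aurora A mature the spindle poles, Aurora B corrects chromosome attachment, and BUB1, BUBR1 and MPS1 hold the spindle checkpoint until every kinetochore is attached. Many of their genes are transcribed mainly in G2 and mitosis, in part through promoter elements called the cell cycle genes homology region (CHR) and the CCAAT box. Etoposide stops topoisomerase II in mid-reaction, and the broken DNA strands that result activate a checkpoint that holds cells before mitosis. RELA encodes p65, a subunit of the transcription factor NF-kB.

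Levels are given as background-corrected, quantile-normalized log2 intensities. Their precision is limited by the number of arrays. The share of probes detected ranged over the arrays from 35.8% to 39.2%. Replicate arrays had r of 0.982 to 0.989 over genes, which do not count as replicates. The proliferation markers PCNA, TOP2A, MCM2 and TYMS and the HEK293 markers CDH2, VIM, NEFM and KRT18 were detected on all 18 arrays. KRT8 was detected on 17 arrays, at a mean log2 level of only 5.94, and the MKI67 probe on 5 arrays, at 5.00. Of markers of other cells, PTPRC, CD3E, KRT5 and KRT14 were detected on 0 arrays and HBB on 1. COL1A2 was detected on 3 arrays, DCN on 2, LUM on 9, COL1A1 on 13 and CD14 on 15, each with a mean log2 level of at most 5.66. Of the 14 marker genes that passed the filter, KRT18 fell in S547A cells at 4 h, and CDH2 and TOP2A, which encodes a topoisomerase that etoposide traps, fell in wt cells. At 8 h 3 of the 14 were higher (MCM2, VIM and MKI67) and 2 lower (CDH2 and KRT18) in S547A cells, beside 16.1% and 14.3% of all genes. In wt cells 1 was higher (MCM2) and 1 lower (CDH2), beside 16.5% and 13.2%. The log2 change of CDH2 was -0.87 in S547A cells and -1.07 in wt cells (limma adjusted p = 1.9e-05 in S547A cells and 1.99e-06 in wt cells). The MKI67 call rests on the dim probe described above. RELA read 8.82, 8.69 and 9.09 in untreated S547A cells, against 7.43, 7.97 and 7.99 in untreated wt cells. The lines did not overlap, and RELA was higher in the S547A line before treatment (log2 difference 1.07, limma adjusted p = 0.018). That call was lost after scaling to a common median (adjusted p = 0.155), with only the compared arrays in the fit (adjusted p = 0.658), and without untreated S547A replicate 1 or 3 (adjusted p = 0.0588 and 0.14), and it held under 11 of 15 alternatives. After 4 h of etoposide RELA rose by 1.29 in S547A cells (adjusted p = 2.49e-05) and by 1.63 in wt cells (adjusted p = 1.57e-06). The files do not say which of these transcripts, the cells' own or the supplied one, the RELA probes read. The part of the RELA difference in the results below was not tested.

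After 4 h of etoposide PLK1, AURKA, BUB1 and NEK2 were lower in both lines, and between 4 h and 8 h AURKA and NEK2 rose again while PLK1 and BUB1 stayed low. Calls are limma's, at an adjusted p under 0.05. At 4 h, 4 of 10 members fell in S547A cells and 6 of 10 in wt cells, where BUB1B and TTK were also called. Of all 12055 genes tested, 3.83% fell in S547A cells and 4.17% in wt cells. The members were chosen with earlier results of these data known. The shares of all genes, here and below, are thus background and no test of the set. At 4 h 0 members rose in either line, beside 5.67% of all genes in S547A cells and 6.25% in wt cells, and every member's log2 change was below 0 (unadjusted p under 0.05 in limma for 5 members in S547A cells and 7 in wt cells). The members' median log2 change at 4 h was -0.30 in S547A cells and -0.58 in wt cells, while the median of all genes was 0.00 in both.

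At 8 h against untreated, 3 members were lower in S547A cells and 3 in wt cells, the same 3 genes, PLK1, BUB1 and AURKA. Of all genes, 14.3% were lower in S547A cells and 13.2% in wt cells, so 3 of 10 stands closer to the background than the 4 h counts do. AURKB alone was called higher, in wt cells, beside 16.5% of all genes, and 0 members were called higher in S547A cells, beside 16.1% (unadjusted p under 0.05 in limma, in either direction, for 4 members in S547A cells and 5 in wt cells). From 4 h to 8 h, 5 members rose in each line, beside 8.28% of all genes in S547A cells and 8.1% in wt cells, and 0 fell, beside 7.13% of all genes in S547A cells and 5.32% in wt cells (unadjusted p under 0.05 in limma, in either direction, for 8 members in S547A cells and 6 in wt cells). AURKA, AURKB, TTK and NEK2 were among the 5 in both lines, with BUB1B the fifth in S547A cells and CDK1 in wt cells. The median change from 4 h to 8 h was 0.49 in S547A cells and 0.43 in wt cells. The comparisons of a line share arrays: both etoposide times are set against the same untreated arrays, and the 4 h arrays enter the change at 4 h and, with the opposite sign, the change from 4 h to 8 h. These RNAs come from whole cultures, in which fewer cells in G2 and mitosis and less of a transcript per cell cannot be told apart. With arrays scaled to a common median instead of quantiles, 2 members were called lower in S547A cells at 4 h and 3 were called higher in them from 4 h to 8 h, and with only the compared arrays in the fit, AURKA in S547A cells and AURKA, AURKB and TTK in wt cells were called higher from 4 h to 8 h. In that fit NEK2 lost its 4 h call in S547A cells (adjusted p = 0.113) and in wt cells (adjusted p = 0.0501), and TTK in wt cells (adjusted p = 0.0787). The counts from 4 h to 8 h were also 3 without S547A 4 h replicate 1 or S547A 8 h replicate 2 in S547A cells, and 3 without wt 4 h replicate 1 in wt cells. With the replicate number as a block, CDK1 and PBK were also called higher in S547A cells from 4 h to 8 h (limma adjusted p = 0.0442 and 0.041).

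**Figure D1:**
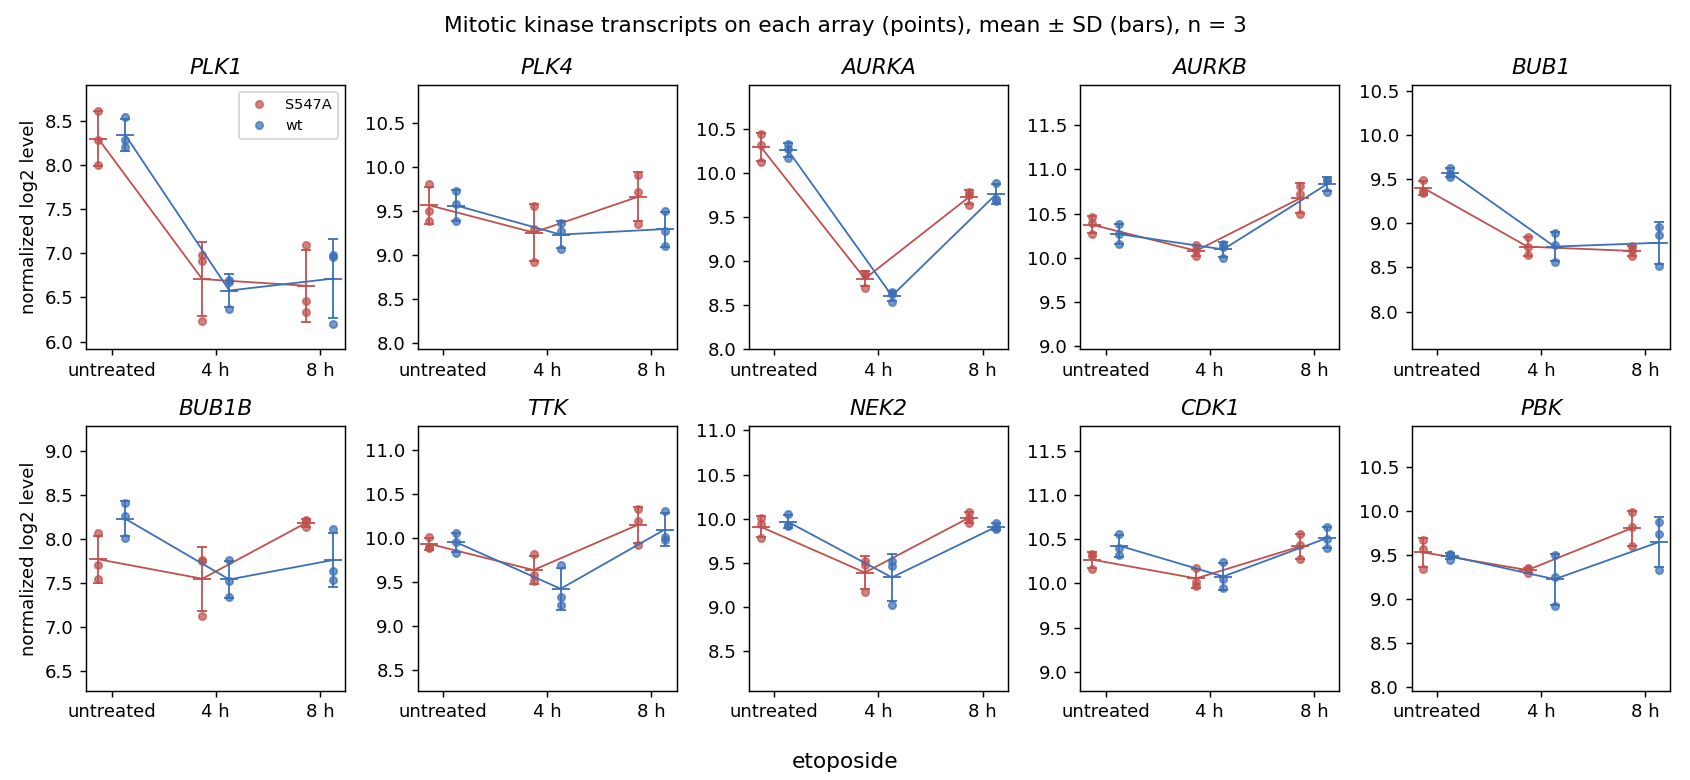
Normalized log2 level of each mitotic kinase on each array (points) in untreated cells and after 4 h and 8 h of etoposide, S547A cells left and wt cells right at each time, with mean ± SD (n = 3). PLK1 and BUB1 stay low at 8 h in both lines, AURKA regains a part of its level, and AURKB ends at 10.68 ± 0.17 in S547A cells and 10.84 ± 0.08 in wt cells.

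Promoter windows of 4 members are shown because their transcripts took different courses: PLK1 and BUB1 stayed low at 8 h, NEK2 came back, and AURKB went above its untreated level in wt cells. Each window runs from 250 bases before to 50 bases after a transcript start of RefSeq (GRCh38.p14), 5′ to 3′ along the gene. Where several windows of a gene were at hand, the one whose start lies furthest upstream is shown. For AURKB that start, at 8210249, lies inside the annotated gene, whose 5′ end is at 8210575. The AURKB window therefore does not reach the 5′ end of the gene. Capitals mark TTTGAA and TTTAAA, forms of the CHR element, and CCAAT, each on either strand (TTCAAA and ATTGG are the other strand's letters).
PLK1, chr16:23678639-23678938 (plus strand): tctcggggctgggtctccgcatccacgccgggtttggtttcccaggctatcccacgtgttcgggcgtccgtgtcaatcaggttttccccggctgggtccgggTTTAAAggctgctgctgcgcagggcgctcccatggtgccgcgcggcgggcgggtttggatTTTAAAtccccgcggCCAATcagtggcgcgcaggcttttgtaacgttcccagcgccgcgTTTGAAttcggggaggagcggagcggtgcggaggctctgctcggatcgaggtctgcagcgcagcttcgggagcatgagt
BUB1, chr2:110678014-110678313 (minus strand): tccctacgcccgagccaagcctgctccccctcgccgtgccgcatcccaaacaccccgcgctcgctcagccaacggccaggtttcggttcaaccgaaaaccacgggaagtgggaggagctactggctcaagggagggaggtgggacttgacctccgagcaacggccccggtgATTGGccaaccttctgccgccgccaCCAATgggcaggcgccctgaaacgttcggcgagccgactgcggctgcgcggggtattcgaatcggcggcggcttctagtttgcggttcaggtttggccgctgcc
NEK2, chr1:211675572-211675871 (minus strand): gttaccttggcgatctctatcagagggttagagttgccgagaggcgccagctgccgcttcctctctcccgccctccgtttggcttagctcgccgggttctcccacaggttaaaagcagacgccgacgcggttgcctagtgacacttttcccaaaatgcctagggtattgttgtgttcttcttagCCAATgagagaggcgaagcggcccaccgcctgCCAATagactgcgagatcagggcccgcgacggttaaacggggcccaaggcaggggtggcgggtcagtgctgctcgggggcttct
AURKB, chr17:8210200-8210499 (minus strand): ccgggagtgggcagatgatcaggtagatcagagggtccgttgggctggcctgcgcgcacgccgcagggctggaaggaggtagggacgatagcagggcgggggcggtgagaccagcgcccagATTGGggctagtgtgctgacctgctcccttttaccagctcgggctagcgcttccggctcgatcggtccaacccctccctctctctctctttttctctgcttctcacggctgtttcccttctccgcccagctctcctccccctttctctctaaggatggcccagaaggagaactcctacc
The PLK1 window holds TTTGAA at -29 to -24 from the start, with CCAAT at -73 to -69 and TTTAAA at 2 places further upstream. BUB1 and NEK2 have 2 CCAAT boxes each and neither TTTGAA nor TTTAAA in this window, and AURKB has 1 CCAAT box on the other strand. No other form of the CHR was searched for, so these windows are not shown to lack the element. No marked motif overlaps another in these 4 windows. Of 35116 RefSeq windows of the same length, 15.2% hold TTTGAA, 12.2% TTTAAA, 34.6% CCAAT, and 9.27% CCAAT together with TTTGAA or TTTAAA. Windows were at hand for PLK1, PLK4, AURKB, BUB1, BUB1B, NEK2 and CDK1, 11 windows in all. TTTGAA was found in a window of 4 of these 7 genes (PLK1, PLK4, BUB1B and CDK1) and CCAAT in 6 of 7, all but BUB1B. These counts take a match in any window of a gene, and PLK4, CDK1 and AURKB have several. They are thus not on the scale of the shares per window above. In PLK4 the TTTGAA match lies after the start, at 39 to 44. The kB motif, the consensus bound by NF-kB, was found in none of the 11 windows and in 11.3% of all windows. These matches are descriptions of the letters and not evidence of binding.

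CDK1 encodes the cyclin-dependent kinase that starts mitosis. In S547A cells its log2 level on the 3 arrays of each time was 10.33, 10.17 and 10.31 untreated, 9.98, 10.18 and 10.02 at 4 h and 10.28, 10.56 and 10.43 at 8 h. In wt cells it was 10.40, 10.57 and 10.32 untreated, 9.94, 10.05 and 10.24 at 4 h and 10.40, 10.51 and 10.64 at 8 h. The 4 h arrays lay lowest in both lines, below all untreated arrays in wt cells and overlapping them in S547A cells. The log2 change at 4 h, -0.21 in S547A cells and -0.35 in wt cells, was not called (adjusted p = 0.329 in S547A cells and 0.0818 in wt cells). Between 4 h and 8 h the change was 0.36 in S547A cells (adjusted p = 0.0537) and a rise of 0.44 in wt cells (adjusted p = 0.0253). The wt call ended without any 1 of 4 h replicate 1, 4 h replicate 2, 8 h replicate 2 or 8 h replicate 3 (adjusted p = 0.109, 0.0728, 0.0648 and 0.1), and the S547A change was called without any 1 of 4 h replicate 2 or 8 h replicate 1 (adjusted p = 0.0482 and 0.0461). Over 15 alternatives the S547A change from 4 h to 8 h was called under 8 and the wt change under 9. Among the 8 were the authors' normalized table (adjusted p = 0.0208), the offset of 50 (adjusted p = 0.0353), the replicate number as a block (adjusted p = 0.0442) and the mean of both probes (0.45, adjusted p = 0.0185). The dimmer CDK1 probe had log2 differences of -0.47 in S547A cells and -0.58 in wt cells at 4 h (adjusted p = 0.171 in S547A cells and 0.0773 in wt cells, adjusted over all kept probes). From 4 h to 8 h they were 0.53 in S547A cells and 0.21 in wt cells (adjusted p = 0.0778 in S547A cells and 0.58 in wt cells), so this probe gave no call. The 4 h fall in wt cells was called under 4 of 15 alternatives. They were the mean of both probes (log2 change -0.46, adjusted p = 0.0194), the authors' normalized table (0.0359), no background correction (0.0377) and detection on all 18 arrays (0.0459). With the mean of both probes the wt rise from 4 h to 8 h was not called (0.32, adjusted p = 0.0902).

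PLK1, the polo-like kinase needed for spindle poles and mitotic entry, fell at 4 h and stayed low at 8 h. In S547A cells PLK1 read 8.29, 8.62 and 8.00 untreated, 6.98, 6.91 and 6.23 at 4 h and 6.34, 7.10 and 6.46 at 8 h. The wt arrays read 8.20, 8.29 and 8.55 untreated, 6.37, 6.70 and 6.67 at 4 h and 6.20, 6.96 and 6.98 at 8 h. All etoposide arrays lay below all untreated arrays of their line, while the 4 h and 8 h arrays overlapped. PLK1 fell to 33.1% of the untreated level in S547A cells at 4 h (log2 change -1.59 ± 0.25, SE, adjusted p = 0.000605) and to 29.4% in wt cells (-1.76 ± 0.25, adjusted p = 0.000214). The size of the fall depended on the processing. Over 15 alternatives the 4 h log2 change ran from -1.746 to -1.086 in S547A cells and from -1.897 to -1.195 in wt cells, called under all 15 in each line. At 8 h PLK1 was at 31.4% in S547A cells (adjusted p = 9.03e-05) and 32.3% in wt cells (adjusted p = 0.000123). The change from 4 h to 8 h was -0.08 in S547A cells (95% interval -0.61 to 0.46) and 0.14 in wt cells (-0.40 to 0.67), and the rises of AURKA given below lie above both intervals.

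PLK4, the kinase that starts centriole duplication, had no called change in any comparison. In S547A cells PLK4 read 9.51, 9.39 and 9.80 untreated, 8.92, 9.56 and 9.29 at 4 h and 9.36, 9.72 and 9.91 at 8 h. In wt cells it read 9.58, 9.38 and 9.73 untreated, 9.07, 9.27 and 9.37 at 4 h and 9.28, 9.11 and 9.51 at 8 h. The wt 4 h arrays lay below the wt untreated arrays, and every other pair of conditions overlapped. At 4 h the log2 change was -0.31 in S547A cells (95% interval -0.69 to 0.07) and -0.33 in wt cells (-0.71 to 0.05). Between 4 h and 8 h it was 0.40 in S547A cells (95% interval 0.02 to 0.79, adjusted p = 0.147) and 0.06 in wt cells (-0.32 to 0.45, adjusted p = 0.871).

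AURKA, which encodes Aurora A, fell at 4 h and regained a part of its level by 8 h. In S547A cells AURKA read 10.12, 10.44 and 10.32 untreated, 8.85, 8.85 and 8.70 at 4 h and 9.63, 9.79 and 9.75 at 8 h. In wt cells it read 10.32, 10.27 and 10.17 untreated, 8.54, 8.64 and 8.63 at 4 h and 9.68, 9.89 and 9.70 at 8 h. The 3 conditions did not overlap in either line, with the 8 h arrays between the 4 h and the untreated arrays. AURKA fell to 35.5% of the untreated level at 4 h in S547A cells (log2 change -1.50 ± 0.11, adjusted p = 1.21e-07) and to 31.8% in wt cells (-1.65 ± 0.11, adjusted p = 4.04e-08). From 4 h to 8 h it rose by 0.93 in S547A cells (adjusted p = 8.51e-05) and by 1.15 in wt cells (adjusted p = 1.27e-05). At 8 h it still stood at 67.4% of the untreated level in S547A cells (adjusted p = 0.000952) and 70.7% in wt cells (adjusted p = 0.00274). The second AURKA probe changed by -1.65 in S547A cells and -1.67 in wt cells at 4 h, and by 1.08 in S547A cells and 1.24 in wt cells from 4 h to 8 h, all called over all kept probes. After scaling of arrays to a common median, the 8 h differences from untreated lost their calls (adjusted p = 0.0754 in S547A cells and 0.0921 in wt cells).

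AURKB, which encodes Aurora B, the kinase of the chromosomal passenger complex, did not pass the test at 4 h and was above its untreated level at 8 h in wt cells. In S547A cells AURKB read 10.40, 10.27 and 10.46 untreated, 10.14, 10.01 and 10.08 at 4 h and 10.49, 10.81 and 10.72 at 8 h. The wt arrays read 10.38, 10.26 and 10.16 untreated, 10.00, 10.16 and 10.12 at 4 h and 10.74, 10.88 and 10.88 at 8 h. The 8 h arrays were the highest in each line, with no overlap with the other conditions, and the 4 h arrays lay below the untreated arrays in S547A cells and overlapped them in wt cells. The log2 change at 4 h was -0.29 in S547A cells (adjusted p = 0.124) and -0.17 in wt cells (adjusted p = 0.4). Between 4 h and 8 h AURKB rose by 0.60 ± 0.11 in S547A cells (adjusted p = 0.00245) and by 0.74 ± 0.11 in wt cells (adjusted p = 0.000678). At 8 h against untreated the change was 0.30 in S547A cells, just short of a call (adjusted p = 0.0551), and a rise of 0.57 in wt cells (adjusted p = 0.00115). The S547A change was called under 6 of 15 alternatives, which were quantile normalization without background correction (adjusted p = 0.0283), the offset of 50 (0.0423), the authors' normalized table (0.0286), no detection filter (0.0473), detection on all 18 arrays (0.0315) and leaving out 8 h replicate 1 (0.023). At 8 h AURKB stood at 123% of its untreated level in S547A cells and 148% in wt cells, while AURKA was below its own untreated level in both lines.

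**Figure D2:**
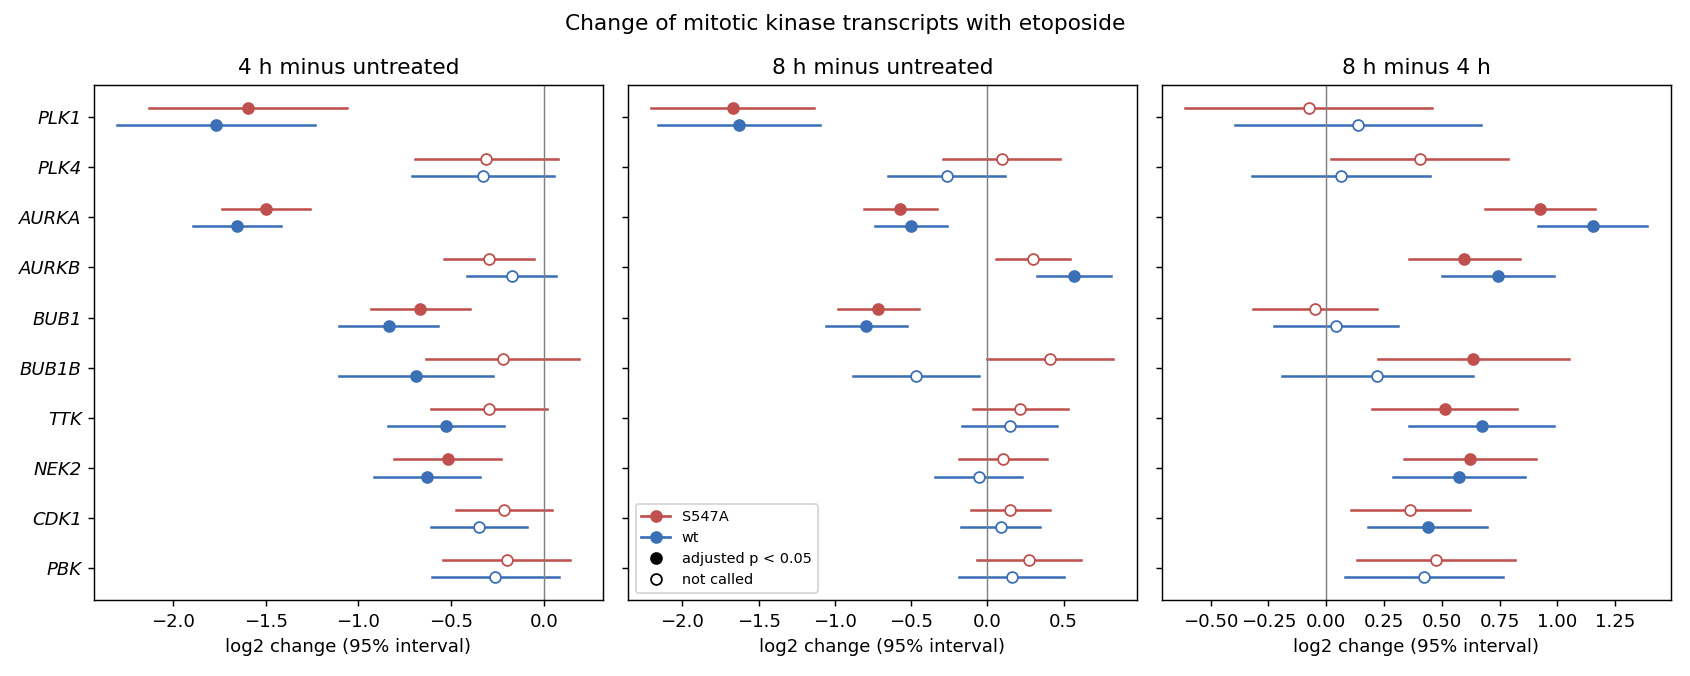
Log2 change of each mitotic kinase with its 95% interval at 4 h against untreated, at 8 h against untreated and at 8 h against 4 h, S547A cells above and wt cells below for each gene. Filled points passed the adjusted threshold. PLK1 and BUB1 lie left of 0 in the first 2 panels and near 0 in the last, and AURKA lies furthest right in the last.

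Of the 3 checkpoint kinases, BUB1 stayed low at 8 h, and BUB1B and TTK did not pass the test at 8 h against untreated. BUB1 encodes the kinase that marks centromeres and recruits checkpoint proteins to kinetochores. In S547A cells BUB1 read 9.37, 9.49 and 9.34 untreated, 8.64, 8.73 and 8.84 at 4 h and 8.74, 8.69 and 8.63 at 8 h. In wt cells it read 9.63, 9.53 and 9.56 untreated, 8.57, 8.76 and 8.89 at 4 h and 8.51, 8.87 and 8.96 at 8 h. Etoposide arrays were all below untreated arrays of the same line, and 4 h and 8 h arrays overlapped. BUB1 fell by 0.67 ± 0.13 at 4 h in S547A cells (adjusted p = 0.00263) and by 0.84 ± 0.13 in wt cells (adjusted p = 0.000375). At 8 h the log2 change was -0.71 in S547A cells (adjusted p = 0.0004) and -0.79 in wt cells (adjusted p = 0.000167). The change from 4 h to 8 h was -0.05 (95% interval -0.32 to 0.22) in S547A cells and 0.04 (-0.22 to 0.31) in wt cells. Scaling arrays to a common median ended the S547A calls at 4 h (adjusted p = 0.0849) and at 8 h (adjusted p = 0.0516).

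BUB1B encodes BUBR1, the checkpoint component that holds the activator of the anaphase-promoting complex. In S547A cells BUB1B read 7.55, 7.70 and 8.06 untreated, 7.13, 7.75 and 7.76 at 4 h and 8.13, 8.21 and 8.21 at 8 h. The wt arrays read 8.41, 8.26 and 8.01 untreated, 7.34, 7.52 and 7.75 at 4 h and 7.53, 7.64 and 8.11 at 8 h. The order of the conditions differed between the lines: 8 h arrays were highest in S547A cells and untreated arrays in wt cells, where they overlapped the 8 h arrays. BUB1B fell by 0.69 at 4 h in wt cells (adjusted p = 0.0319), a call that ended without any 1 of untreated replicate 1, untreated replicate 2, 4 h replicate 1 or 4 h replicate 2 (adjusted p = 0.124, 0.0873, 0.128 and 0.0842). In S547A cells the 4 h change was -0.22 (95% interval -0.64 to 0.19, adjusted p = 0.559). From 4 h to 8 h it rose by 0.64 in S547A cells (adjusted p = 0.0361), a call that ended without any 1 of 4 h replicate 1, 8 h replicate 1, 8 h replicate 2 or 8 h replicate 3 (adjusted p = 0.173, 0.0692, 0.0883 and 0.0864), after scaling to a common median (adjusted p = 0.0662) and with no detection filter (adjusted p = 0.0528). Adjusted over all kept probes, neither the wt fall at 4 h (adjusted p = 0.0505) nor this S547A rise (adjusted p = 0.0528) was called. In wt cells the change from 4 h to 8 h was 0.22 (adjusted p = 0.525). Against untreated, the 8 h change was 0.41 in S547A cells (adjusted p = 0.124) and -0.47 in wt cells (adjusted p = 0.0836), neither called. The wt change was called without 8 h replicate 3 (adjusted p = 0.0284), without background correction (adjusted p = 0.0365) and in the authors' normalized table (adjusted p = 0.0359), and the S547A change after scaling to a common median (0.65, adjusted p = 0.0462).

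TTK encodes MPS1, the kinase at the top of the spindle checkpoint. In S547A cells TTK read 10.02, 9.90 and 9.89 untreated, 9.51, 9.82 and 9.58 at 4 h and 10.19, 10.33 and 9.93 at 8 h. In wt cells it read 9.96, 10.06 and 9.84 untreated, 9.24, 9.70 and 9.33 at 4 h and 10.01, 9.97 and 10.31 at 8 h. The 4 h arrays were the lowest in both lines, with no overlap with untreated or 8 h arrays, and 8 h arrays overlapped untreated ones. TTK fell by 0.53 at 4 h in wt cells (adjusted p = 0.0303), a call lost without any 1 of untreated replicate 1, untreated replicate 2, 4 h replicate 1 or 4 h replicate 3 (adjusted p = 0.0799, 0.109, 0.133 and 0.1), while the S547A change of -0.30 was not called (adjusted p = 0.248). Adjusted over all kept probes, the wt fall was not called either (adjusted p = 0.0533). Between 4 h and 8 h TTK rose by 0.51 in S547A cells (adjusted p = 0.0265) and by 0.67 in wt cells (adjusted p = 0.00714). The S547A call was lost without any 1 of 4 h replicate 1, 4 h replicate 3, 8 h replicate 1 or 8 h replicate 2 (adjusted p = 0.0956, 0.0749, 0.073 and 0.108) and after scaling to a common median (adjusted p = 0.0784).

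NEK2, a kinase that separates the centrosomes before spindle assembly, fell at 4 h and rose again by 8 h. In S547A cells NEK2 read 10.00, 9.78 and 9.94 untreated, 9.52, 9.17 and 9.48 at 4 h and 9.95, 10.01 and 10.07 at 8 h. The wt arrays read 9.92, 9.92 and 10.05 untreated, 9.02, 9.46 and 9.52 at 4 h and 9.89, 9.95 and 9.88 at 8 h. The 4 h arrays lay below all others of their line, and the 8 h arrays overlapped the untreated ones. NEK2 fell by 0.52 in S547A cells (adjusted p = 0.0218) and by 0.63 in wt cells (adjusted p = 0.0059) at 4 h, and from 4 h to 8 h it rose by 0.62 in S547A cells (adjusted p = 0.00576) and 0.57 in wt cells (adjusted p = 0.0109). The difference from untreated at 8 h was 0.10 in S547A cells (95% interval -0.18 to 0.39) and -0.06 in wt cells (-0.34 to 0.23). The S547A call at 4 h ended without any 1 of untreated replicate 1, untreated replicate 3 or 4 h replicate 2 (adjusted p = 0.0847, 0.0684 and 0.0974), and the wt call from 4 h to 8 h without 4 h replicate 1 (adjusted p = 0.061). The log2 difference of the dimmer NEK2 probe was -0.56 in S547A cells (adjusted p = 0.108 over all kept probes) and -0.73 in wt cells (adjusted p = 0.0286) at 4 h, and from 4 h to 8 h it was 0.37 in S547A cells and 0.67 in wt cells (adjusted p = 0.256 in S547A cells and 0.0392 in wt cells). After scaling of arrays to a common median, the S547A fall lost its call (adjusted p = 0.26).

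PBK, a kinase of dividing cells also known as TOPK, had no change called with all arrays and the settings used throughout. In S547A cells PBK read 9.57, 9.34 and 9.67 untreated, 9.35, 9.29 and 9.34 at 4 h and 9.60, 9.82 and 9.99 at 8 h. The wt arrays read 9.50, 9.45 and 9.51 untreated, 8.92, 9.25 and 9.50 at 4 h and 9.87, 9.33 and 9.74 at 8 h. The S547A 8 h arrays lay above the S547A 4 h arrays, and every other pair of conditions overlapped. The change from 4 h to 8 h was 0.47 in S547A cells (95% interval 0.13 to 0.82, adjusted p = 0.0576) and 0.42 in wt cells (0.08 to 0.76, adjusted p = 0.0997). It was called in S547A cells without 8 h replicate 1 (adjusted p = 0.0456) and in wt cells without 8 h replicate 2 (adjusted p = 0.0409). In all, the S547A change was called under 6 of 15 alternatives, among them the authors' normalized table (adjusted p = 0.0167), the offset of 50 (adjusted p = 0.0304) and the replicate number as a block (adjusted p = 0.041). The wt change was called under 4 of 15, among them the authors' table (adjusted p = 0.0399) and scaling to a common median (adjusted p = 0.0275).

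The design also asks whether these transcripts differ between cells with S547A and with wt p65. Of the 10 members, 0 were called different between the lines in untreated cells, 0 at 4 h and 0 at 8 h, beside 0.0415%, 0.083% and 0.108% of all genes (limma, unadjusted p under 0.05 for 1, 0 and 1 members). The 2 unadjusted cases are both BUB1B, which read 7.55, 7.70 and 8.06 in untreated S547A cells against 8.41, 8.26 and 8.01 in untreated wt cells, and 8.13, 8.21 and 8.21 in S547A cells at 8 h against 7.53, 7.64 and 8.11 in wt cells at 8 h. Its line difference was -0.46 untreated (adjusted p = 0.802) and 0.42 at 8 h (adjusted p = 0.755). S547A arrays of BUB1B lay above all wt arrays at 8 h and overlapped them when untreated. AURKA at 4 h was also higher on every S547A array than on any wt array (difference 0.19, 95% interval -0.04 to 0.43). BUB1 in untreated cells was lower on every S547A array than on any wt array (difference -0.17, 95% interval -0.44 to 0.10). For the other members the S547A and wt arrays overlapped at each time.

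Whether the response itself differs, S547A minus wt, was tested too, and a difference was called for 0 members at 4 h, 0 at 8 h and 0 from 4 h to 8 h, beside 0.0166%, 0.0249% and 0% of all genes (limma, unadjusted p under 0.05 for 0, 1 and 0 members). For PLK1 the difference was 0.17 (95% interval -0.58 to 0.92) at 4 h and -0.04 (95% interval -0.80 to 0.71) at 8 h. For AURKA it was 0.16 (95% interval -0.18 to 0.49) at 4 h and -0.07 (95% interval -0.40 to 0.27) at 8 h. The AURKB difference at 8 h was -0.27 (95% interval -0.61 to 0.07), so its call in wt cells alone does not show that the lines differ. BUB1B was the unadjusted case at 8 h, at 0.88 (95% interval 0.30 to 1.47) with a limma adjusted p of 0.575. For TTK it was 0.23 (95% interval -0.21 to 0.67) at 4 h and 0.07 (95% interval -0.37 to 0.51) at 8 h, and for BUB1B at 4 h it was 0.47 (95% interval -0.12 to 1.05). The differences of the other 5 members lay between 0.02 and 0.36 at both times, each with an interval that includes 0. A missing call does not show that the lines respond alike.

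**Figure D3:**
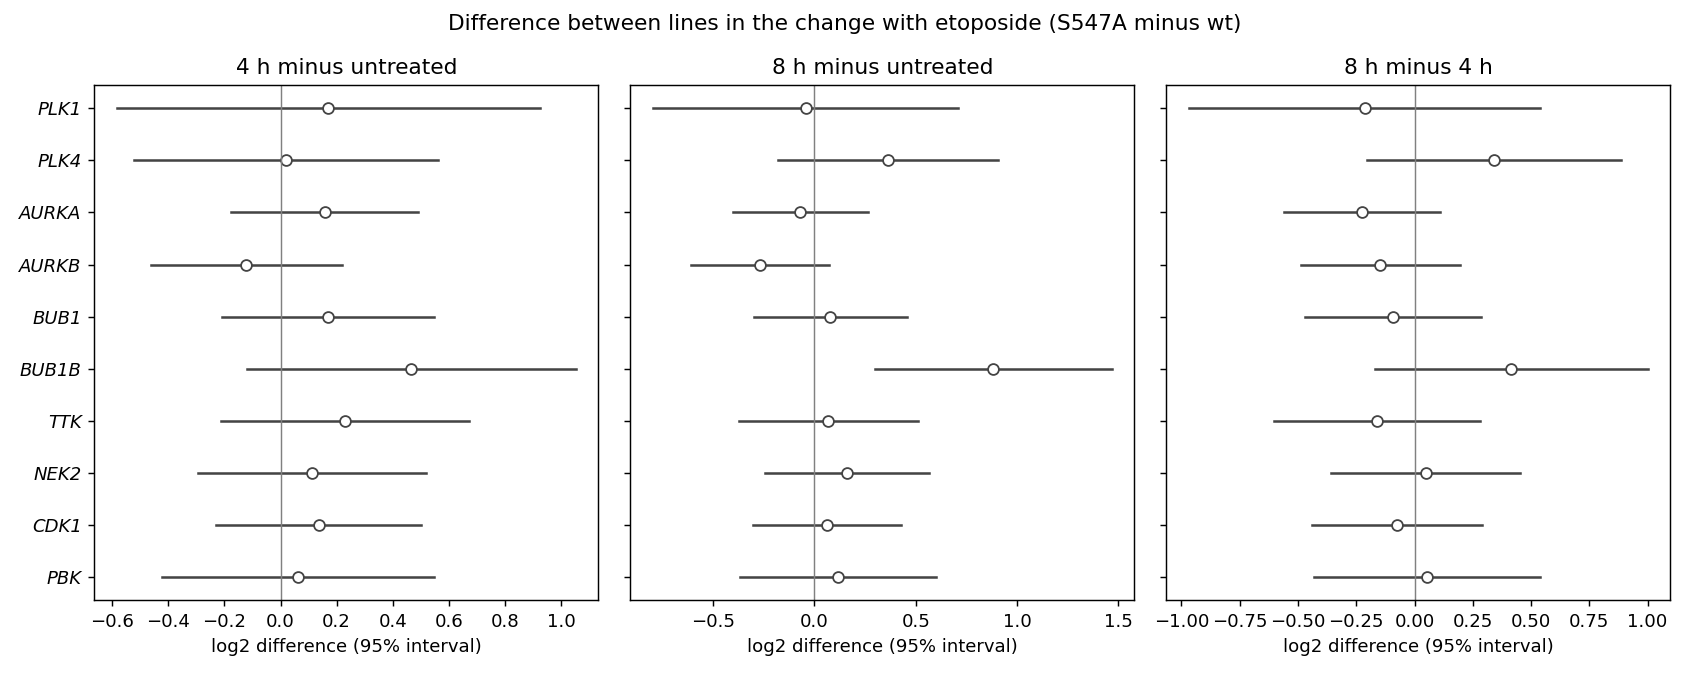
Difference between S547A and wt cells in the log2 change of each mitotic kinase, S547A minus wt, with its 95% interval, at 4 h against untreated, at 8 h against untreated and at 8 h against 4 h. No point passed the adjusted threshold, and only BUB1B at 8 h has an interval that excludes 0, at 0.88 (95% interval 0.30 to 1.47).

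Across the 18 arrays the members did not vary as 1 block. The following correlations of log2 level describe arrays that share their conditions and normalization, and carry no test. PLK1 and BUB1 went together (r = 0.932), as did AURKA and NEK2 (r = 0.833) and TTK and CDK1 (r = 0.807). AURKB stood apart from PLK1 (r = -0.108) and from BUB1 (r = -0.138). Outside the set, the genes closest to AURKA over the 18 arrays were CENPA (r = 0.972), KIF14 (r = 0.967) and EHBP1 (r = 0.94). Those closest to BUB1 were CDC20 (r = 0.956), CUX1 (r = 0.952) and ADGRL3 (r = 0.951), and those closest to PLK1 were SOSTDC1 (r = 0.957), JARID2 (r = 0.954) and FAM72D (r = 0.942). AURKB was closest to NSRP1 (r = 0.916), PALLD (r = 0.914) and KIF20B (r = 0.901), and NEK2 to EHBP1 (r = 0.905), CENPA (r = 0.883) and COQ5 (r = 0.86). TTK was closest to KIF21A (r = 0.898), LIN54 (r = 0.897) and SRBD1 (r = 0.888), and CDK1 to KIF21A (r = 0.867), BORA (r = 0.859) and GAS2L3 (r = 0.843). For BUB1B the closest were CLASP2 (r = 0.887), SF3B1 (r = 0.882) and COPS2 (r = 0.881), for PLK4 TJP1 (r = 0.908), NUDT21 (r = 0.864) and UST (r = 0.851), and for PBK COQ5 (r = 0.87), LYRM1 (r = 0.856) and AEBP2 (r = 0.836).

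Several binding partners and activators of these kinases fell at 4 h, and more of them rose between 4 h and 8 h. The gene lists below are described by counts and medians only, and the shares of all genes called are those given above. Of 16 partners and activators measured, 6 in S547A cells and 8 in wt cells fell at 4 h, and 1 in S547A cells and 2 in wt cells rose. Their median log2 change at 4 h was -0.30 in S547A cells and -0.46 in wt cells. From 4 h to 8 h 10 in S547A cells and 11 in wt cells rose and none fell, with a median of 0.59 in S547A cells and 0.54 in wt cells. At 8 h against untreated 5 in S547A cells and 5 in wt cells were higher and 4 in S547A cells and 2 in wt cells lower.

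CCNB1, which encodes the cyclin B1 partner of CDK1, fell by 1.78 in S547A cells and 1.51 in wt cells at 4 h (adjusted p = 2.46e-08 in S547A cells and 2.7e-07 in wt cells) and was still lower by 0.89 in S547A cells and 0.85 in wt cells at 8 h. TPX2, the activator of Aurora A, fell by 0.79 in S547A cells and 0.69 in wt cells at 4 h (adjusted p = 0.000812 in S547A cells and 0.00215 in wt cells). Partners of Aurora B took different courses. INCENP, the scaffold of its complex, fell by 0.90 in S547A cells and 1.11 in wt cells at 4 h and was lower than untreated by 1.30 in S547A cells and 1.15 in wt cells at 8 h (adjusted p = 0.000376 in S547A cells and 0.00113 in wt cells). BIRC5, which encodes survivin of the same complex, rose by 0.89 in S547A cells and 0.91 in wt cells from 4 h to 8 h (adjusted p = 0.000516 in S547A cells and 0.000485 in wt cells). The centriole genes CEP152 and STIL encode partners of PLK4. CEP152 was higher at 8 h by 1.07 in S547A cells and 1.19 in wt cells (adjusted p = 8.99e-05 in S547A cells and 3.52e-05 in wt cells), and STIL by 0.91 in S547A cells and 0.85 in wt cells (adjusted p = 5.54e-05 in S547A cells and 0.00011 in wt cells). CDC25A, a phosphatase that activates cyclin-dependent kinases, rose by 0.85 in S547A cells and 0.89 in wt cells at 4 h (adjusted p = 0.00273 in S547A cells and 0.00189 in wt cells).

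Of 14 checkpoint and kinetochore partners of BUB1, BUB1B and TTK, 3 in S547A cells and 4 in wt cells fell at 4 h and none rose, with a median log2 change of -0.14 in S547A cells and -0.27 in wt cells. Between 4 h and 8 h 3 rose in each line and none fell, with a median of 0.26 in S547A cells and 0.24 in wt cells. CDC20, the activator of the anaphase-promoting complex that the checkpoint holds, fell by 0.82 in S547A cells and 0.82 in wt cells at 4 h and was lower than untreated by 0.98 in S547A cells and 0.92 in wt cells at 8 h (adjusted p = 3.85e-06 in S547A cells and 7.83e-06 in wt cells). NDC80, a kinetochore protein that binds microtubules, fell by 0.82 in S547A cells and 0.85 in wt cells at 4 h and rose by 1.16 in S547A cells and 1.12 in wt cells from 4 h to 8 h (adjusted p = 7.7e-05 in S547A cells and 0.000103 in wt cells). SGO1, the protector of centromeric cohesion, was higher than untreated at 8 h by 0.87 in S547A cells and 0.96 in wt cells (adjusted p = 8.65e-05 in S547A cells and 3.55e-05 in wt cells).

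Of 24 kinase substrates and motors of mitosis, 8 in S547A cells and 12 in wt cells fell at 4 h and none rose, with a median log2 change of -0.45 in S547A cells and -0.42 in wt cells. From 4 h to 8 h 11 in S547A cells and 13 in wt cells rose and none fell, with a median of 0.44 in S547A cells and 0.47 in wt cells. CENPA, the histone variant of centromeres, fell by 2.30 in S547A cells and 2.20 in wt cells at 4 h (adjusted p = 1.02e-08 in S547A cells and 2.18e-08 in wt cells) and rose by 1.73 in S547A cells and 1.81 in wt cells from 4 h to 8 h (adjusted p = 2.61e-06 in S547A cells and 2.52e-06 in wt cells). At 8 h 7 in S547A cells and 10 in wt cells of the 24 were below untreated. KIF20A, a motor of cytokinesis, was lower then by 1.14 in S547A cells and 1.00 in wt cells (adjusted p = 1.61e-05 in S547A cells and 5.98e-05 in wt cells). KIF20B, another mitotic kinesin, was higher by 0.72 in S547A cells and 0.62 in wt cells (adjusted p = 0.000266 in S547A cells and 0.000902 in wt cells).

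Inhibitors of the kinases and enzymes that end mitosis moved both ways. Of 11 measured, 3 in S547A cells and 4 in wt cells rose at 4 h and 1 in S547A cells and 2 in wt cells fell, with a median of -0.05 in S547A cells and 0.01 in wt cells. GADD45A, a p53 target that inhibits CDK1, rose by 1.67 in S547A cells and 1.67 in wt cells at 4 h and was above untreated by 2.65 in S547A cells and 2.91 in wt cells at 8 h (adjusted p = 1.59e-10 in S547A cells and 4.39e-11 in wt cells). CDKN1A, which encodes the inhibitor p21, rose by 0.96 in S547A cells and 1.10 in wt cells at 4 h (adjusted p = 0.000209 in S547A cells and 5.13e-05 in wt cells). UBE2C, the ubiquitin-conjugating enzyme of the anaphase-promoting complex, fell by 1.08 in S547A cells and 1.13 in wt cells at 4 h (adjusted p = 1.75e-05 in S547A cells and 1.07e-05 in wt cells). Among 10 other kinases of these families or of mitosis, 1 in S547A cells and 1 in wt cells rose at 4 h and 1 in S547A cells and 0 in wt cells fell (NEK3), with a median of 0.09 in S547A cells and -0.02 in wt cells. The gene that rose in both lines is MASTL, which encodes the Greatwall kinase, by 0.69 in S547A cells and 0.78 in wt cells at 4 h (adjusted p = 0.000767 in S547A cells and 0.000226 in wt cells). At 8 h MASTL was above untreated by 1.21 in S547A cells and 1.10 in wt cells.

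Of 14 regulators known to act on promoters of G2 and mitosis, among them FOXM1, MYBL2 and subunits of DREAM and NF-Y, 0 were called at 4 h in S547A cells and 0 in wt cells (limma, unadjusted p under 0.05 for 0 in S547A cells and 2 in wt cells), with a median of -0.07 in S547A cells and -0.13 in wt cells. At 8 h 2 in S547A cells and 3 in wt cells were higher and 1 lower in each line. LIN37, a DREAM subunit, was called higher at 8 h (adjusted p = 0.00375 in S547A cells and 5.67e-06 in wt cells), but its probe was detected on 2 of 3 untreated S547A arrays and 1 of 3 untreated wt arrays, so no size is given for its rise. RBL1, which encodes the pocket protein p107, was higher by 1.10 in S547A cells and 0.73 in wt cells (adjusted p = 0.00229 in S547A cells and 0.0289 in wt cells). In the 6 lists 0 of 89 genes were called by limma for a difference between the lines or between their responses (unadjusted p under 0.05 for 4 genes untreated, 3 at 4 h and 8 at 8 h, and for 3 in the response at 4 h, 6 at 8 h and 6 from 4 h to 8 h).

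**Figure D4:**
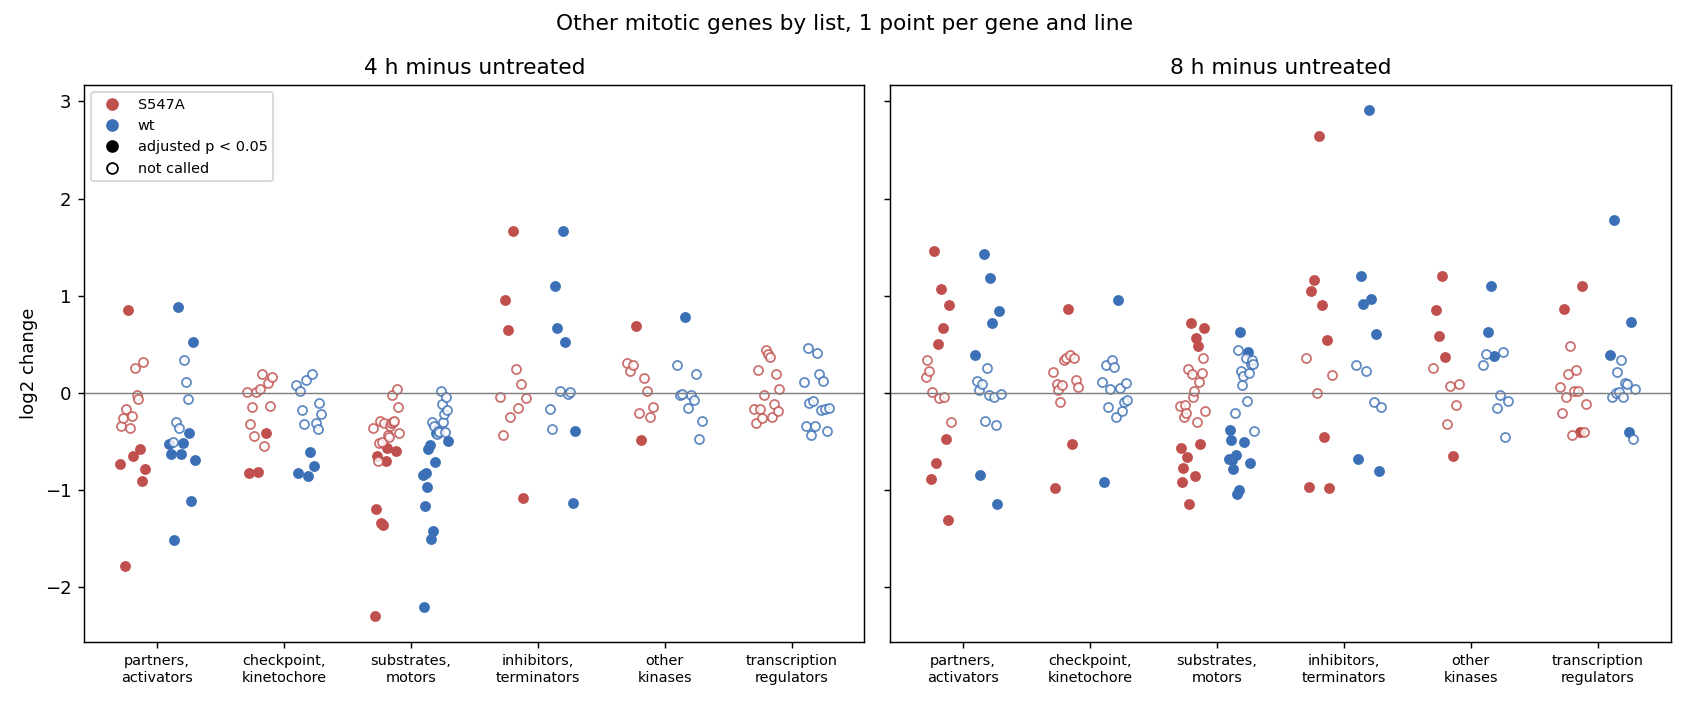
Log2 change at 4 h (left panel) and 8 h (right panel) against untreated of the other mitotic genes, grouped by list, 1 point per gene, with S547A cells left of wt cells within each list. Filled points passed the adjusted threshold. GADD45A is the highest point at 8 h, at 2.65 in S547A cells and 2.91 in wt cells, and CENPA the lowest at 4 h, at -2.30 in S547A cells and -2.20 in wt cells.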

How the data were processed

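Per the labels' protocols, RNA of each sample was amplified to biotin-labelled cRNA, hybridised to an Illumina bead array and stained with streptavidin-Cy3. The authors deposited a non-normalized table with, per the file headers, a linear intensity and a detection p-value for each probe and array. The submitters' processing notes name GenomeStudio. A second deposited table holds normalized intensities on a linear scale, with a floor of 1, and was used as an alternative. The genome build is not given in the sources used here. In place of a depth, the share of the 47231 probes that was detected ranged over the arrays from 35.8% to 39.2%, and the number of arrays limits the precision.

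Intensities were background-corrected against the detection p-values, quantile-normalized with an offset of 16 and put on the log2 scale (neqc of limma 3.58.1, R 4.3.3). The filter kept the 22161 probes that 3 or more arrays detected (detection p-value under 0.05). Of the probes, 30112 have 1 gene symbol in the platform annotation, 8 have several and 17111 have none here. Of those with 1 symbol, 30073 were matched by gene ID to a RefSeq gene, whose symbol was used. The brightest kept probe stands for a gene, which leaves 12055 genes. Group means were fitted on all 18 arrays with 12 residual degrees of freedom, and the 3 changes within each line, the 3 differences between lines and the 3 differences between responses were tested with limma's moderated test. P-values were Benjamini-Hochberg adjusted over all genes within each comparison and called under 0.05.

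The p-values measure the spread between 3 arrays a group, which the series text calls independent. The files give no chip or scan, so such batches were not analysed. The 10 members and the gene lists were chosen with earlier results of these data known. All members are named, and from each list up to 3 called genes per direction and comparison with the largest change were eligible. For each member the 3 genes with the highest correlation are named. Alternatives were quantile normalization without background correction, scaling to a common median, an offset of 50, the authors' normalized table, no detection filter, detection on all 18 arrays, the mean of a gene's kept probes, the replicate number as a block, only the compared groups in the fit, and each array left out. RELA was put through these alternatives after the data had been seen.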

Additional observations from a re-analysis of the deposited data

How the results depend on the processing

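Over 1980 values of the 10 kinases under alternatives, 1906 kept their side of the threshold, 42 lost a call and 32 gained one. None with a call turned round. Among the 1906 are 95 values that changed sign with no call in either fit. With a common median, 2 kinases were called for S547A 4 h, 3 kinases and 1043 genes for S547A 8 h minus 4 h, and 811 genes for wt 4 h. With only the compared groups fitted, 455 genes were called for S547A 4 h, 1 kinase and 672 genes for S547A 8 h minus 4 h, and 3 kinases and 1066 genes for wt 8 h minus 4 h. That fit has fewer arrays to estimate the spread. Common-median scaling moved the median of all genes by up to -0.22 (S547A minus wt, untreated) and 0.22 (response at 4 h).

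Genes called between untreated lines numbered 5, against 3 without background correction, 2 with a common median, 3 in the authors' table, 3 with detection on all arrays, 1 with the mean of probes, 1 with the replicate block and 0 with only the compared groups. At 4 h they numbered 10, against 1 with detection on all arrays and 0 with only the compared groups. At 8 h they numbered 13, against 23 without background correction, 7 with a common median, 22 with the offset of 50, 23 in the authors' table, 3 with detection on all arrays and 6 with only the compared groups. Responses at 4 h differed for 2 genes, against 4 without background correction, 4 with a common median, 5 with the offset of 50, 4 in the authors' table, 0 with detection on all arrays, 1 with the mean of probes and 1 with only the compared groups. At 8 h they differed for 3 genes, against 7 with the offset of 50, 0 with detection on all arrays and 5 with only the compared groups. The cause of these shifts was not tested.

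Leaving out 1 array gave 3 to 4 kinases for S547A 4 h (711 to 1028 genes), 4 to 6 for wt 4 h (849 to 969), 3 to 4 for S547A 8 h (3064 to 3255), 4 to 5 for wt 8 h (2919 to 3019), 3 to 6 for S547A 8 h minus 4 h (1311 to 1697) and 3 to 5 for wt 8 h minus 4 h (936 to 1121). Between lines it gave 0 kinases and 0 to 3 genes untreated, 4 to 10 genes at 4 h and 5 to 9 at 8 h, and for responses 0 kinases and 2 to 3 genes at 4 h, 0 to 4 at 8 h and 0 from 4 h to 8 h.

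With the replicate number as a block the count of kinases changed in 1 comparison, S547A 8 h minus 4 h, where 7 were called, CDK1 (adjusted p = 0.0442) and PBK (adjusted p = 0.041) being added. The labels do not say that a number marks a shared run, so the numbers were not taken as pairs in the main fit. Deviations of 45 same-numbered array pairs correlated at r = -0.076 to 0.213, 14 of them over 0.1 (median 0.073). For 90 pairs of different number r was -0.237 to 0.105, 1 of them over 0.1 (median -0.037), and 14 of 18 arrays correlated best with their own number. Same-numbered arrays thus tended to vary together, which the main fit leaves out. The offset added before log2 understates differences of dim probes.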

Other observations

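Other mitotic genes around these kinases also kept different times. HMMR, which encodes a spindle protein tied to Aurora A, fell by 1.34 in S547A cells and 1.50 in wt cells at 4 h (adjusted p = 4.83e-06 in S547A cells and 1.18e-06 in wt cells) and was still lower by 0.66 in S547A cells and 1.04 in wt cells at 8 h (adjusted p = 0.00112 in S547A cells and 1.81e-05 in wt cells). KIF23, which encodes a kinesin of the central spindle, fell by 0.70 in S547A cells and 0.71 in wt cells at 4 h (adjusted p = 0.0228 in S547A cells and 0.0199 in wt cells) and rose by 0.89 in S547A cells and 0.93 in wt cells from 4 h to 8 h (adjusted p = 0.00421 in S547A cells and 0.00383 in wt cells). CDC14B, a phosphatase that opposes CDK1 substrates, was lower at 8 h by 0.97 in S547A cells and 0.68 in wt cells (adjusted p = 0.00034 in S547A cells and 0.00565 in wt cells). FBXO5, which encodes EMI1, an inhibitor of the anaphase-promoting complex, was higher at 8 h by 1.16 in S547A cells and 0.92 in wt cells (adjusted p = 0.0001 in S547A cells and 0.000837 in wt cells). HASPIN, the kinase that helps to place Aurora B at centromeres, was higher at 8 h by 0.59 in S547A cells and 0.63 in wt cells (adjusted p = 0.00772 in S547A cells and 0.00506 in wt cells), and MELK, a kinase of dividing cells, by 0.37 in S547A cells and 0.38 in wt cells (adjusted p = 0.0442 in S547A cells and 0.042 in wt cells).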
